A study of Homo sapiens with 6 samples.

Results

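The 8 genes described here build and switch off the hypoxia-inducible factor (HIF): the alpha subunits HIF1A and EPAS1, their partner ARNT, the ubiquitin ligase subunit VHL, the prolyl hydroxylases EGLN1, EGLN2 and EGLN3, and the asparaginyl hydroxylase HIF1AN. They were chosen by gene symbol, and all 8 were found among the 60675 gene IDs of the deposited table, 1 ID each. RNA came from HCT116, an established line of human colon carcinoma cells, made to express stably either wild-type PHF5A (WT, 3 libraries) or PHF5A K29Q (3 libraries), in which glutamine stands in place of a lysine of this splicing factor. Every library therefore came from cells with an introduced PHF5A, the labels list no cells without one, and they name no oxygen level or treatment. Nor do they state if libraries of 1 group came from separate cultures or clones, so a p-value here reflects the spread among 6 libraries, and that spread may be technical.

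HIF is a pair of an alpha subunit and ARNT that binds DNA at hypoxia response elements. With oxygen present, the EGLN enzymes hydroxylate prolines of the alpha subunit, and VHL then marks it for the proteasome. HIF1AN hydroxylates an asparagine in the alpha subunit and so keeps the coactivators EP300 and CREBBP from binding. This control acts on protein, and EGLN1 and EGLN3 are themselves HIF targets, a feedback known from many cell types. The transcript values below say nothing of the amount or hydroxylation of the proteins.

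Expression is given as FPKM (fragments per kilobase of transcript, scaled to sequencing depth), which allows levels of different genes to be set side by side. The values of unspliced genes moved in steps, and if 1 step was 1 fragment, 1 FPKM stood for 33.6 to 40.2 fragments per kilobase, depending on the library. Tests used limma on log2(FPKM + 1) over 13261 genes, those that reached 1 FPKM in 3 or more libraries, with Benjamini-Hochberg adjustment over all of them and a threshold of 0.05. All 8 genes passed the filter on low values. PHF5A itself had 33.1 ± 1.06 FPKM in the WT libraries and 44.1 ± 2.38 in the others (SD, n = 3 each), with no overlap. Its log2 fold change was 0.40 (limma adjusted p = 0.11). With a trend of each library with GC and transcript length subtracted it was 0.43 and passed (limma adjusted p = 0.0201). The differences below between K29Q and WT thus cannot be told apart from a difference in PHF5A transcript amount. Gene totals do not tell the introduced PHF5A from the cells' own and do not show which codon a read carried. WT 3 had the steepest rise of values with GC content, at 0.118 log2 units per 10% GC relative to the mean of the 6 libraries, where the other libraries ran from −0.069 to 0.030. The column headers named 2 sequencing runs, read here as flow cells: A held K29Q 1, K29Q 2 and WT 2, and B held K29Q 3, WT 1 and WT 3. A difference within A thus rests on WT 2 alone for WT, and within B on K29Q 3 alone for K29Q. Of 12 colon epithelium markers 8 passed the filter, with sums of 1267 to 1425 FPKM in WT and 1166 to 1223 in K29Q. CDX1, VIL1 and LGALS4 were near 0. Of 6 endothelial markers, a cell type known for EPAS1, 0 passed, and their sums were 0.448 to 0.526 FPKM in WT and 0.376 to 0.433 in K29Q. Of 6 fibroblast markers COL1A1 alone passed, with sums of 4.52 to 5.39 FPKM in WT and 4.68 to 6.07 in K29Q while DCN and LUM were listed at 0. Of 6 leukocyte markers CD68 alone passed, with sums of 2.29 to 3.02 and 2.50 to 2.94 FPKM. The part of these markers in the results was not tested.

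HIF1A was the most abundant of the 8 transcripts, at a mean of 19.8 FPKM over the 6 libraries. HIF1AN (11.6), EGLN1 (10.7) and VHL (10.5) followed and overlapped one another in range. EGLN2 (7.17), ARNT (5.41) and EPAS1 (4.55) came next, and the range of each overlapped that of its neighbour in this order. EGLN3 was lowest at 1.78 FPKM. HIF1A stood at the 85.8th percentile of the tested genes by mean FPKM, and EGLN3 at the 17.2th.

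None of the 8 genes passed the threshold for a difference between K29Q and WT (limma, 0 of 8). Over all genes tested 7 passed, which is 0.0528% (0.0302% higher and 0.0226% lower in K29Q). At an unadjusted p under 0.05 stood 1 of the 8, EGLN1, where 12.5% of all genes did (7.65% higher and 4.89% lower). The K29Q libraries all lay above the WT libraries for 1 of the 8, again EGLN1, and the groups did not overlap for 17.8% of all genes (8.8% with K29Q above WT, 9% with K29Q below). The log2 fold change was above 0 for 6 of the 8 and below 0 for EPAS1 and VHL, with a median of 0.10, against a median of 0.00 and 51% above 0 over all genes. A share of 1 in 8 is close to the background in both counts.

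**Figure D1:**
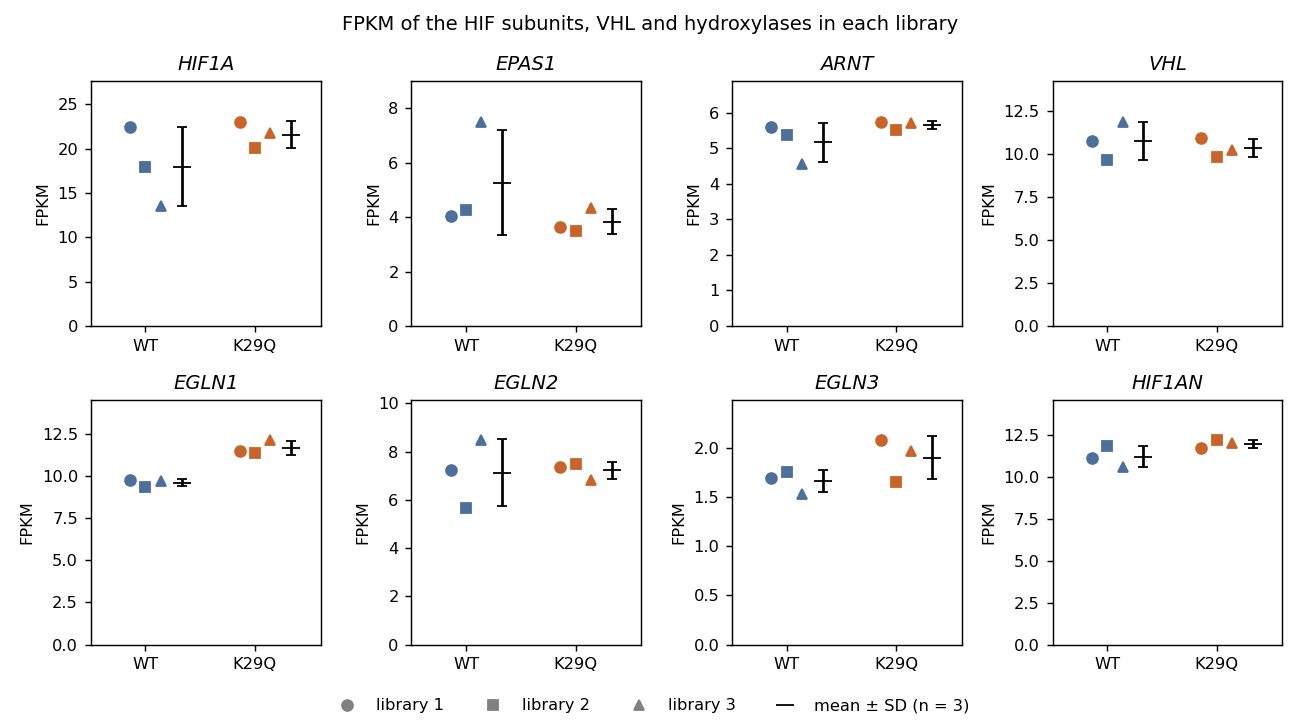
FPKM of each gene in the 3 WT and 3 K29Q libraries (points; the shape gives the library number), with the group mean and SD (n = 3) as a bar beside them; each panel has its own axis from 0. EGLN1 is the gene whose groups do not overlap, and WT 3 (triangle) is the lowest library for HIF1A at 13.5 FPKM and the highest for EPAS1 at 7.50.

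EGLN1, also called PHD2, is the main prolyl hydroxylase that sets HIF alpha levels under normal oxygen. Its FPKM was 9.76, 9.38 and 9.73 in WT 1 to 3 and 11.5, 11.4 and 12.1 in K29Q 1 to 3. The mean was 9.62 ± 0.214 for WT and 11.7 ± 0.405 for K29Q (SD, n = 3 each), and no K29Q library reached down to a WT library. The ratio of means was 1.21, and the log2 fold change was 0.25 (SE 0.058, 95% interval 0.12 to 0.39). The unadjusted p was 0.00332 and the limma adjusted p over all genes 0.257, so the difference did not pass. Within flow cells it was 0.26 (A) and 0.29 (B). Once a trend of each library with GC and transcript length was subtracted, it was 0.18 (adjusted p = 0.209).

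EGLN2 (PHD1) and EGLN3 (PHD3) are the other hydroxylases of this kind. EGLN2 had 7.23, 5.68 and 8.47 FPKM in WT 1 to 3 and 7.36, 7.50 and 6.81 in K29Q 1 to 3. The WT libraries spanned the K29Q ones on both sides, and the log2 fold change was 0.03 (SE 0.126, 95% interval −0.27 to 0.33, limma adjusted p = 0.935). Its direction differed between flow cells, at 0.34 within A and −0.18 within B. EGLN3, a strongly HIF-dependent transcript in many cells, had 1.70, 1.75 and 1.54 FPKM in WT and 2.08, 1.66 and 1.97 in K29Q. K29Q 1 and 3 lay above all WT libraries and K29Q 2 lay among them. The log2 fold change of EGLN3 was 0.12 (SE 0.082, 95% interval −0.07 to 0.32, adjusted p = 0.56), and at this level the pseudocount of 1 shrinks it: with 0.1 it was 0.18.

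Together the 3 prolyl hydroxylases summed to 18.7, 16.8 and 19.7 FPKM in WT 1 to 3 and to 20.9, 20.5 and 20.9 in K29Q 1 to 3. EGLN1 made up 52.4% ± 3.24 of that sum in WT against 56.1% ± 1.67 in K29Q (SD, n = 3 each), EGLN2 38.5% ± 4.56 and 34.7% ± 2.01, and EGLN3 9.10% ± 1.32 and 9.13% ± 0.954. Each share overlapped between the groups. With 1 library left out, the difference in the EGLN1 share ran from 2.13 (without WT 3) to 5.37 percentage points (without WT 2) around 3.69, and that in the EGLN2 share from −6.06 (without WT 2) to −1.50 (without WT 3) around −3.73. These sums and shares combine genes chosen for this description and carry no test.

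Short stretches around the core of the hypoxia response element are shown next, because EGLN1 and EGLN3 are known HIF targets and EGLN1 is the gene whose groups were apart. In the 250 bases before the RefSeq start of each gene (GRCh38.p14), ACGTG and GCGTG were searched on both strands, and 7 of the 8 genes had a window, 9 windows in all. VHL had no entry. The sequences run 5′ to 3′ on the gene's strand, and capitals mark the matches.
EGLN1: gccgtggtgtACGTGcagagcgc
EGLN2: ggggcgcggtCACGTGcccaccgggc
HIF1A: gctgagagcgGCGTGggctggggtg
EPAS1: gcctgccggcGCGTGcccgcccaca
EGLN1 has its match 13 to 9 bases before the start (chr1:231422288-231422310, minus strand), and with the base before it the match reads TACGTG. GENCODE 29 starts EGLN1 further upstream and annotates this stretch as untranslated exon sequence. In EGLN2 the 6 capitals, 49 to 44 bases before the start (chr19:40799132-40799157, plus strand), are ACGTG matches on both strands that overlap. HIF1A (chr14:61695299-61695323, plus strand) and EPAS1 (chr2:46297280-46297304, plus strand) hold GCGTG, 204 to 200 and 117 to 113 bases before the start. The windows of EGLN3, ARNT and HIF1AN hold neither motif. The GENCODE 29 spans of EPAS1, EGLN2, EGLN3, ARNT and HIF1AN also begin upstream of the RefSeq starts used here. Their windows therefore lie partly or wholly inside those spans. HIF1A has a second window (chr14:61697462-61697711), which lies wholly inside its GENCODE 29 span and holds neither motif. Of 35116 windows of this length, 18.5% hold ACGTG, 2.76% TACGTG and 32.2% GCGTG, so ACGTG and GCGTG are common. The median GC content of those windows was 58%, against 75.6% to 81.2% for the HIF1A, EPAS1, EGLN1 and EGLN2 windows with a match. The shares are thus not matched for GC content, for TACGTG either. A match describes letters and does not show a bound site.

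HIF1A encodes the HIF1 alpha subunit, which is made continuously and destroyed when oxygen is present. Its FPKM was 22.4, 18.0 and 13.5 in WT 1 to 3 and 23.0, 20.0 and 21.7 in K29Q 1 to 3. WT 1 lay within the K29Q range and WT 2 and WT 3 below it, with WT 3 the lowest. The log2 fold change was 0.28 (SE 0.165, 95% interval −0.11 to 0.67, limma adjusted p = 0.515). Within flow cell A it came to 0.24, and in B to 0.30. It was 0.10 without WT 3 (adjusted p = 0.78) and 0.44 without WT 1 (adjusted p = 0.142). HIF1A had the lowest GC content of the 8, at 36.4% of its longest transcript against 44.1% to 55.8% for the others. With the GC and length trend subtracted its difference was 0.12 (adjusted p = 0.657), and WT 3 still lay lowest, at −0.34 from the mean of the 6 libraries where it had been at −0.50.

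EPAS1 encodes the HIF2 alpha subunit, which has the same partner and hydroxylases but a partly different set of targets. EPAS1 had 4.03, 4.28 and 7.50 FPKM in WT 1 to 3 and 3.64, 3.50 and 4.35 in K29Q 1 to 3. WT 3 stood far above the other 5 libraries, and K29Q 3 lay above WT 1 and WT 2. The log2 fold change was −0.34 (SE 0.200, 95% interval −0.81 to 0.13, adjusted p = 0.511, limma). Without WT 3 it was −0.10 (adjusted p = 0.743). The height of WT 3 was about as large with the GC and length trend subtracted, at 0.63 above the mean of the 6 libraries against 0.65 before.

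In WT 3 the alpha subunits thus stood at opposite ends, HIF1A lowest and EPAS1 highest of the 6 libraries. EPAS1 amounted to 0.556 of HIF1A in WT 3, and to between 0.158 (K29Q 1) and 0.238 (WT 2) in the other 5. Their sum was 21.0 FPKM in WT 3, the lowest, and at most 26.7 in K29Q 1. ARNT, the constitutive beta subunit that both need, had 5.59, 5.36 and 4.56 FPKM in WT 1 to 3 and 5.74, 5.51 and 5.71 in K29Q 1 to 3, with WT 3 again lowest. The log2 fold change of ARNT was 0.11 (SE 0.080, 95% interval −0.08 to 0.30, limma adjusted p = 0.574) and 0.04 without WT 3. Summed alpha subunits per ARNT came to 4.50 ± 0.306 in WT against 4.49 ± 0.201 in K29Q (SD, n = 3 each), a spread from 4.15 to 4.73 over all 6 libraries that did not set WT 3 apart. WT 3 was the highest or the lowest library for 7 of the 8 genes, EGLN1 being the exception, and for 47.3% of all genes. This library was singled out after its values were seen.

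**Figure D2:**
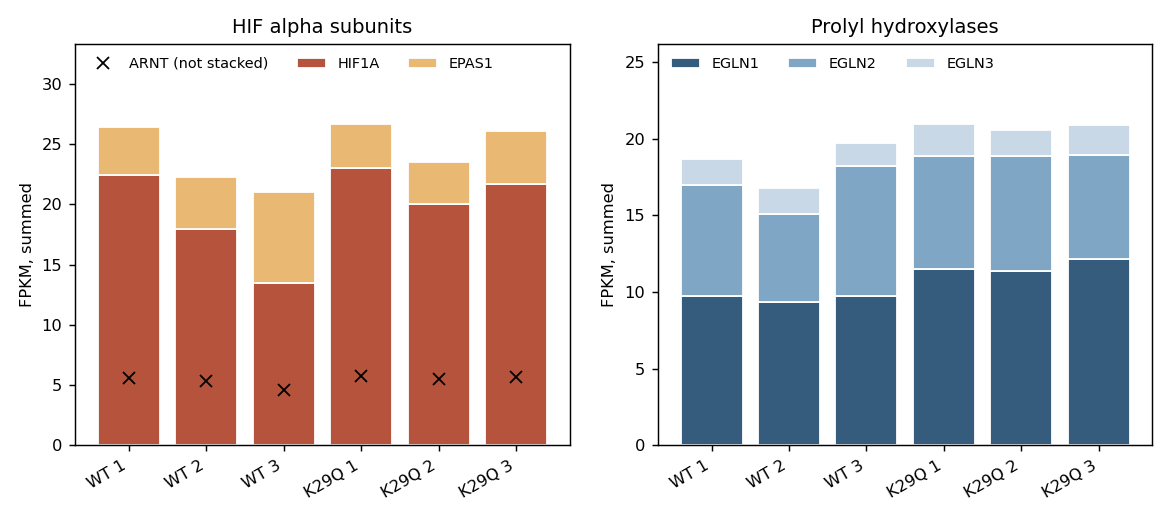
Stacked FPKM of the alpha subunits (left, with ARNT as crosses that are not stacked) and of the 3 prolyl hydroxylases (right) in each library. In WT 3 EPAS1 takes a larger part of the alpha subunits (0.556 of HIF1A), and the hydroxylase sum lies between 16.8 and 19.7 FPKM in WT and between 20.5 and 20.9 in K29Q.

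VHL, the part of the ubiquitin ligase that recognises hydroxylated HIF alpha, had 10.8, 9.65 and 11.9 FPKM in WT 1 to 3 and 10.9, 9.84 and 10.2 in K29Q 1 to 3. The K29Q libraries lay inside the WT range, and the log2 fold change was −0.05 (SE 0.085, 95% interval −0.25 to 0.15, limma adjusted p = 0.823). Its sign differed between flow cells, at 0.09 within A and −0.13 within B. HIF1AN, the factor inhibiting HIF, had 11.2, 11.9 and 10.6 FPKM in WT and 11.8, 12.2 and 12.0 in K29Q. WT 2 lay inside the K29Q range and the other WT libraries below it. The log2 fold change of HIF1AN was 0.09 (SE 0.063, 95% interval −0.06 to 0.24, adjusted p = 0.571), 0.01 in flow cell A and 0.13 in flow cell B. With the GC and length trend subtracted it was 0.02.

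**Figure D3:**
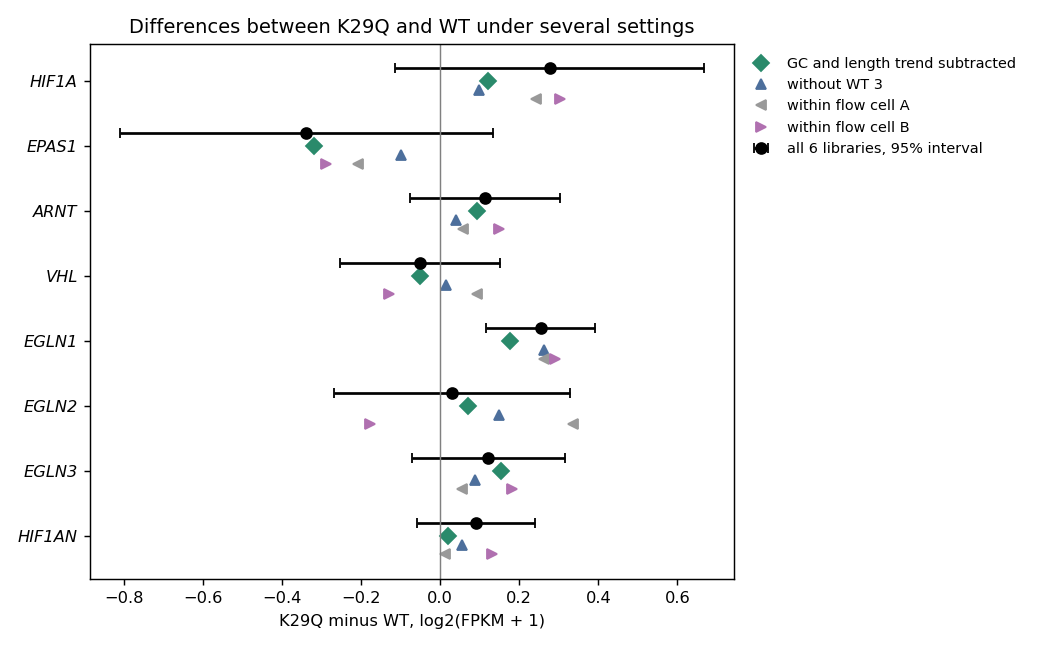
Difference of K29Q and WT on the log2(FPKM + 1) scale for each gene: all 6 libraries with the 95% interval (circles), with the GC and length trend subtracted (diamonds), without WT 3 (upward triangles) and within flow cells A and B (left and right triangles). EGLN1 is the gene whose interval, 0.12 to 0.39, leaves out 0, while HIF1A moves from 0.28 to 0.10 and EPAS1 from −0.34 to −0.10 without WT 3.

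The genes lie on 6 chromosomes in GENCODE 29 on GRCh38, and all 8 code for protein. HIF1A (ENSG00000100644) spans 61695513 to 61748259 on chromosome 14, plus strand, and EGLN3 (ENSG00000129521) 33924231 to 34462774 on the same chromosome, minus strand. EPAS1 (ENSG00000116016) spans 46293667 to 46386703 on chromosome 2, plus strand, and VHL (ENSG00000134086) 10141008 to 10152220 on chromosome 3, plus strand. Chromosome 1 holds ARNT (ENSG00000143437) from 150809705 to 150876768 and EGLN1 (ENSG00000135766) from 231363751 to 231425044, both on the minus strand. EGLN2 (ENSG00000269858) spans 40798996 to 40808433 on chromosome 19, plus strand, and HIF1AN (ENSG00000166135) 100529072 to 100559998 on chromosome 10, plus strand.

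Of 11 other gene models that overlap these spans, all in the table, 5 reached an FPKM of 0.5 in any library. HIF1A-AS2 (ENSG00000258667, chromosome 14, 61715558 to 61751097) is a long noncoding RNA on the strand opposite HIF1A. HIF1A-AS2 had 0.637, 0.370 and 0.580 FPKM in WT 1 to 3 and 1.14, 0.758 and 1.28 in K29Q 1 to 3. The groups did not overlap, but the gene did not pass the filter on low values. In the fit with no filter its log2 fold change was 0.43 (unadjusted p = 0.018, limma adjusted p = 0.618). No strand option is given in the sources used here, so reads of HIF1A and HIF1A-AS2 may not have been told apart.

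EGLN2 overlaps RAB4B-EGLN2, a read-through model on the same strand that shares exons with it. RAB4B-EGLN2 had 0.981, 0.841 and 1.40 FPKM in WT 1 to 3 and 1.59, 0.868 and 1.41 in K29Q 1 to 3. It took 13.0% ± 1.11 of the summed FPKM of both models in WT and 15.1% ± 4.10 for K29Q (SD, n = 3 each), so the division of fragments between them bears on EGLN2. The sum was 8.20 ± 1.67 FPKM in WT and 8.51 ± 0.386 with K29Q. The start of HIF1AN overlaps NDUFB8, a complex I subunit, and RP11-411B6.6, both on the opposite strand. NDUFB8 had 64.7, 67.9 and 69.5 FPKM in WT and 65.9, 65.6 and 61.0 in K29Q, and RP11-411B6.6 had 10.3, 8.02 and 14.5 in WT and 14.2, 11.8 and 14.4 in K29Q. SPTSSA, a serine palmitoyltransferase subunit, lies inside the long GENCODE span of EGLN3, on the same strand. SPTSSA had 16.2, 14.6 and 15.3 FPKM in WT and 17.0, 17.3 and 17.6 in K29Q, with no overlap. Its log2 fold change was 0.16 (limma adjusted p = 0.389), and 0.05 with the GC and length trend subtracted. Whether fragments of SPTSSA entered the values of EGLN3, at a mean of 1.78 FPKM, was not tested.

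The genes around the oxygen switch were taken as 6 lists, of which 98 of 108 entries passed the filter. In each list 0 genes passed the threshold in either direction (limma). With the GC and length trend subtracted, 5 HIF targets passed, all higher in K29Q, and 0 genes of the other 5 lists or of the 8 oxygen-sensing genes did. That fit called 0.633% of 13108 genes (0.465% higher in K29Q). At an unadjusted p under 0.05 stood 7.65% of all genes with K29Q higher and 4.89% with K29Q lower.

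VHL works in a complex with elongins, a cullin and a ring protein. Of 9 such partners and ubiquitin-pathway enzymes, all tested, 3 had log2 fold changes above 0 and 6 below 0, the median being −0.06, with 2 at an unadjusted p under 0.05, both below 0. ELOB (elongin B) had 173, 179 and 195 FPKM in WT 1 to 3 and 159, 166 and 152 in K29Q 1 to 3, with no overlap (log2 fold change −0.20, limma adjusted p = 0.376). UBE2M, the NEDD8-conjugating enzyme, had 77.9 ± 8.02 and 66.2 ± 1.16 FPKM, also with no overlap (adjusted p = 0.379). ELOC (elongin C, 14.7 ± 0.936 and 13.4 ± 0.533) and UBE2D1 (3.73 ± 0.528 and 4.24 ± 0.545) overlapped between the groups (SD, n = 3 each).

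Other proteins of the bHLH-PAS family, to which the HIF subunits belong, had 9 of 13 members tested, 6 above 0 and 3 below, with a median of 0.04. HIF3A, a further alpha subunit, had a mean of 0.0314 FPKM, and NPAS3, NPAS4 and SIM1 also failed the filter. CLOCK, a circadian regulator, had 5.91, 4.07 and 4.34 FPKM in WT and 6.89, 6.15 and 6.82 in K29Q, with no overlap (log2 fold change 0.41, limma adjusted p = 0.348, and 0.22 with the GC and length trend subtracted). AHR, the dioxin receptor that also pairs with ARNT, had 5.76 ± 0.723 and 6.59 ± 0.334 FPKM and overlapped. NPAS2 had 1.46 ± 0.118 and 1.30 ± 0.107 FPKM, and SIM2 had 3.50 ± 0.0144 and 3.24 ± 0.276 (SD, n = 3 each). NPAS2 overlapped between the groups, and SIM2 lay lower in every K29Q library (limma adjusted p = 0.618).

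Among 11 HIF coactivators and their inhibitors, all tested, 8 lay above 0 and 3 below, with a median of 0.07. EP300 and CREBBP, whose binding HIF1AN controls, had log2 fold changes of 0.07 and 0.06. The steroid receptor coactivator NCOA1 had 1.92 ± 0.131 FPKM in WT and 2.33 ± 0.113 with K29Q, and CITED4, which competes for the same coactivators, 4.35 ± 0.387 and 3.43 ± 0.595 (SD, n = 3 each). Both had no overlap and neither passed (limma adjusted p = 0.385 and 0.392). NCOA2 (3.48 ± 0.576 and 4.07 ± 0.0353) and the Mediator subunit MED1 (12.9 ± 1.15 and 14.2 ± 0.701) overlapped.

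Of 22 regulators of HIF stability other than VHL and its partners listed above, 20 were tested, with 14 above 0, 6 below and a median of 0.03. UCHL1 failed the filter and MORG1 was not matched in the table. The chaperone HSP90AA1 had 418, 311 and 316 FPKM in WT and 417, 402 and 430 in K29Q, so that WT 1 lay with the K29Q libraries (log2 fold change 0.27, limma adjusted p = 0.404). USP8 (1.83 ± 0.385 and 2.32 ± 0.176), USP28 (2.97 ± 0.218 and 3.39 ± 0.0356), both deubiquitinases, and WSB1 (5.58 ± 0.615 and 6.63 ± 0.735), a ubiquitin ligase subunit, had limma adjusted p from 0.42 to 0.435. USP28 was the one of these 4 whose groups did not overlap.

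The hydroxylases use 2-oxoglutarate and release succinate, and of 20 enzymes that act on or near these metabolites 19 were tested. Of these 4 lay above 0 and 15 below, with a median of −0.04. Its sign differed between flow cells, at −0.12 within A and 0.03 within B. OGDH (27.5 ± 2.23 and 24.3 ± 0.813 FPKM) and DLST (19.8 ± 1.31 and 15.6 ± 4.03), subunits of the 2-oxoglutarate dehydrogenase complex, lay lower in every K29Q library, while DLD (14.1 ± 1.59 and 16.3 ± 0.166), a subunit the complex shares with others, lay higher in every one. The difference of DLST rested on K29Q 2, at 11.1 FPKM against 17.0 and 18.8 in K29Q 1 and 3, and its log2 fold change of −0.36 was −0.14 without that library. IDH3B (26.2 ± 0.653 and 24.2 ± 0.894), which makes 2-oxoglutarate in mitochondria, lay lower. None of these 4 passed (limma adjusted p from 0.394 to 0.478), and BCAT1 failed the filter.

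The HIF target list held 33 genes other than the 8, of which 30 were tested, CA12, LOX and VLDLR failing the filter. Of these 27 lay above 0 and 3 below (PFKFB3, P4HA2 and SLC2A1), with a median of 0.20. At an unadjusted p under 0.05 stood 13, all above 0, and in 17 the K29Q libraries all lay above the WT libraries, where 8.8% of all genes did so. CA9, FAM162A, ALDOC and P4HA1 had the smallest p (limma adjusted p from 0.0837 to 0.11). With the GC and length trend subtracted these 4 passed, at limma adjusted p of 0.014, 0.0466, 0.0397 and 0.0218 in that order. Their log2 fold changes went from 0.70, 0.46, 0.52 and 0.56 to 0.76, 0.37, 0.58 and 0.48 with that subtraction. The median of the list fell from 0.20 to 0.16. The fifth to pass there was ADM (adrenomedullin, adjusted p = 0.0348 against 0.117 without the subtraction), named after its value was seen. With a flow cell term or the replicate block added to the subtraction, 0 of the 30 passed. CA9, a classical HIF1 target, had 3.13, 2.90 and 3.70 FPKM in WT 1 to 3 and 6.52, 5.71 and 5.47 in K29Q 1 to 3. The list was chosen with earlier results of these libraries known and is no independent evidence of a direction. Library by library, the median target lay at −0.10, −0.09 and −0.17 from its mean in WT 1 to 3 and at 0.03, 0.17 and 0.13 in K29Q 1 to 3. EGLN1 had the same arrangement of groups. EGLN3, also a known HIF target, did not, since K29Q 2 lay at −0.06 from its mean, below WT 1 and WT 2. HIF1A did not either, since WT 1 lay at 0.19 above its mean for HIF1A.

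**Figure D4:**
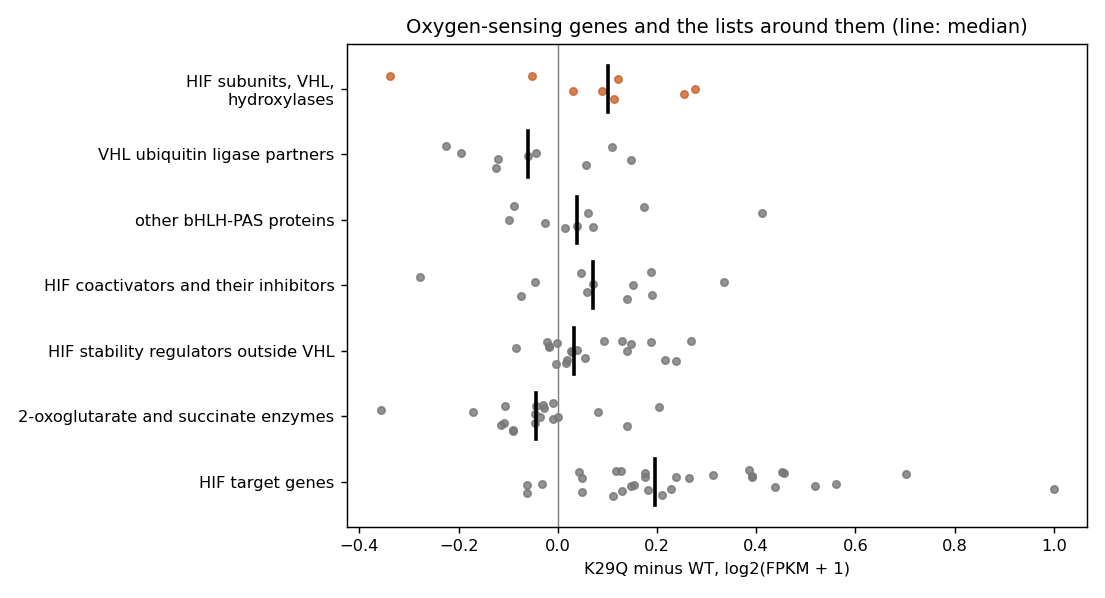
Log2 fold change of each tested gene, K29Q against WT on the log2(FPKM + 1) scale, in the 8 oxygen-sensing genes (orange) and the 6 lists around them (grey), with the median as a line. The HIF targets have a median of 0.20 and the other lists medians between −0.06 and 0.07; vertical scatter within a row has no meaning.

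For HIF1A and for EGLN1, the member with the smallest p among the others, the tested genes with the most similar profile over the 6 libraries were found by the root mean square difference of log2 deviations from each gene's own mean, among 5143 genes with a mean log2 value of at least 3. Closest to HIF1A were TWF1 (0.061), OSTC (0.079) and EPS8 (0.088), against a median of 0.282 over the candidates. A gene with equal values in all 6 libraries would have lain at 0.250. The named genes were picked as the smallest distances, so values under the median were given in advance. TWF1 had 30.4, 22.6 and 17.5 FPKM in WT 1 to 3 and 29.2, 26.3 and 31.0 in K29Q 1 to 3, with the same low WT 3. The longest transcripts of TWF1, OSTC and EPS8 had GC contents of 38.6%, 40.0% and 40.8%, against 36.4% for HIF1A. With the GC and length trend subtracted WT 3 still lay lowest for each of them, at −0.38, −0.28 and −0.21 from the mean. Before the subtraction it had been at −0.53, −0.42 and −0.35. The part of GC content in these likenesses was not tested. Closest to EGLN1 were GNAI1 (0.044), PALLD (0.047) and PSMA2 (0.047), against a median of 0.175 and 0.131 for a gene with equal values. GNAI1 had 21.2, 20.1 and 20.4 FPKM in WT and 26.5, 24.7 and 25.6 in K29Q, and did not pass the threshold either (limma adjusted p = 0.17). The longest transcripts of GNAI1, PALLD and PSMA2 had GC contents of 37.1%, 44.1% and 40.7%, against 44.1% for EGLN1. With the GC and length trend subtracted, the log2 fold change of GNAI1 was 0.11 instead of 0.30. That of PALLD was 0.23 instead of 0.29, and that of PSMA2 0.20 instead of 0.30.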

How the data were processed

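RNA of 3 WT and 3 K29Q libraries of HCT116 was sequenced, and 1 table of FPKM per gene and library was deposited, per the file headers. The authors aligned reads to GRCh38 with HISAT2 2.1.0 and quantified them by StringTie, per the submitters' processing notes. For StringTie's version, the annotation release and the strand option: not given in the sources used here. There were 0 columns of samples outside the series.

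FPKM values are not counts, so no count test was run. Depth is not given; steps in the values of single-exon, single-transcript genes over 600 nt put it at 33600000 to 40200000 fragments per library, if 1 step was 1 fragment. StringTie divides fragments among overlapping models, so counts were not recovered. Genes that reached 1 FPKM in 3 or more libraries (13261) were fitted as log2(FPKM + 1) with limma 3.58.1 in R 4.3.3 (intensity trend, group as the only term, two-sided, Benjamini-Hochberg). The fit was tested on simulated data. Fold changes on this scale understate those of low genes. Positions, transcript lengths and GC content came from GENCODE 29 by gene ID (13124 of the tested IDs found), and promoter windows from RefSeq.

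The 8 genes and the lists were chosen with earlier results of these data known. The text names the 8 genes, gene models overlapping them with an FPKM of at least 0.5, up to 4 genes per list with the smallest p, and 3 genes nearest in profile to each of HIF1A and EGLN1. Other genes named within a list (EP300, CREBBP, and those below 0 or below the filter) were chosen after their values were seen. Alternatives were quantile normalization, no filter, only genes averaging 5 FPKM or more, a pseudocount of 0.1, a replicate block, a flow cell term, subtraction, per library, of a trend with GC and transcript length (splines with 4 degrees of freedom each), alone or with either term, and leaving out each library.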

Additional observations from a re-analysis of the deposited data

How the results depend on the processing

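None of the 8 genes passed the threshold under any of the alternatives run (0 of 8 in each, or 0 of 6 at a mean FPKM of at least 5, which left out EPAS1 and EGLN3). EGLN1 kept its direction under all 15 alternatives, at log2 fold changes from 0.18 to 0.28 and limma adjusted p from 0.0984 (without WT 1) to 0.716 (without K29Q 3). HIF1A ran from 0.09 to 0.44 and EPAS1 from −0.48 to −0.10, with adjusted p from 0.142 to 0.781 and from 0.276 to 0.775. Signs turned for VHL without WT 3 (0.015, range −0.12 to 0.015 with 1 library left out), for EGLN2 without WT 2 (−0.10 to 0.15), and for HIF1AN with the GC and length trend subtracted and a flow cell term (−0.013), the cause of which was not tested.

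Over all genes 7 passed, and 13 did with quantile normalization, 2 with no filter, 4 with a flow cell term, 83 with the GC and length trend subtracted, and from 5 to 20 with 1 library left out (20 without WT 1, 12 without K29Q 1). Replicate numbers did not pair the libraries: same-numbered libraries deviated together with correlations across genes of −0.140, 0.179 and −0.165. Of differently numbered libraries, WT 3 with K29Q 1 had 0.247 and WT 1 with K29Q 3 had 0.208. The other such pairs were negative, and a shared origin of libraries was not tested. With the replicate block 3 genes passed, and 1 with the block and the trend subtracted.

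The median of the VHL partners was −0.033 with quantile normalization, −0.090 at a mean FPKM of at least 5, and −0.088 to −0.035 with 1 library left out. That of the other bHLH-PAS proteins was 0.29 at a mean FPKM of at least 5 (2 genes) and −0.023 with the trend subtracted, also with a flow cell term (−0.023) or the replicate block (−0.023). Of the HIF targets 0 passed except with the trend subtracted (5 of 30). Their median was 0.16 with the trend subtracted and ran from 0.17 to 0.27 with 1 library left out (0.27 without K29Q 1). EPAS1 per HIF1A, K29Q minus WT, was −0.15 and ran from −0.22 to −0.03 (without WT 3). Depth bears on low genes such as EGLN3, since 1 FPKM stood for 33.6 to 40.2 fragments per kilobase.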
